A study of Mus musculus with 10 samples.

Results

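Tspan1, a tetraspanin of epithelial membranes, was followed together with 8 genes of duct and mucosal epithelium in RNA from mouse pancreatic islets. The 9 genes were chosen by name out of 24475 genes in the table, around Tspan1, which had been picked because its level differed between the treatment groups. They were the keratin genes Krt19, Krt7 and Krt23, the duct regulator gene Sox9, the clusterin gene Clu, and the mucosal genes Tff2, Dmbt1 and Ctse. Because the contrast between the groups chose Tspan1, levels and group differences of the 9 genes are given as a description, without a test. All 9 passed the filter on low values, which asked for 0.5 RPKM or more on average (RPKM are reads scaled by transcript length and library size), as did 13450 genes in all.

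Each library held polyA RNA of islets from C57BL/6 mice, cleaned on a Histopaque gradient. One group of 5 libraries, replicates 1 to 5, came from mice treated with the glucagon receptor blocking antibody REGN1193. The other 5 libraries, replicates 6 to 10, came from mice given an isotype control antibody, which has no such target. The labels give no dose, duration, sex or age, and leave unsaid whether any libraries share an animal, so every p-value here reflects the spread among libraries, which may be technical. The estimated depth ran from 12.3 to 18.1 megareads. Gcg, the proglucagon gene, stood at 63254 ± 11470 RPKM (SD, n = 5) under the antibody and 12299.9 ± 3618 RPKM (SD, n = 5) under the isotype control (log2 difference 2.39, limma adjusted p = 0.00174, which was 0.784 with no filter on low values, and a log2 difference of 1.41 with quantile normalization). Slc38a5, an amino acid carrier gene, stood at 52.3 ± 18.7 and 3.05 ± 1.25 RPKM (SD, n = 5 each; log2 difference 3.91, limma adjusted p = 9.89e-05). In bulk islet RNA, fewer cells of a type and less RNA per cell cannot be told apart.

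Tetraspanins are small proteins that cross the membrane several times and gather receptors, integrins and enzymes into membrane domains. The ducts of the pancreas are lined by a simple epithelium held together by keratin filaments, which secretes bicarbonate and mucus-associated proteins. Ducts run close to islets and small pieces of them can be carried along when islets are isolated. Trefoil factors, scavenger receptor glycoproteins and cathepsin E are best known from the gastric and intestinal mucosa, and several of them also appear in injured or remodelling pancreatic epithelium.

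RefSeq start sites of GRCm38.p6 were available for 3 of the 9 genes, and they are shown because they set Tspan1 beside Krt23, the member with the steepest slope on it, and Krt7, the member with a negative one. Each sequence is the 250 bases before the start site of the RefSeq promoter table, on the gene's strand. For Tspan1 that start site is 116167598, inside the span of the gene given below, so the last 23 bases of its window lie within the gene, while the windows of Krt23 and Krt7 end where the genes begin. The capitals mark CACCTG on either strand, a motif of the E-box class.
Tspan1 (minus strand, chr4:116167599-116167848): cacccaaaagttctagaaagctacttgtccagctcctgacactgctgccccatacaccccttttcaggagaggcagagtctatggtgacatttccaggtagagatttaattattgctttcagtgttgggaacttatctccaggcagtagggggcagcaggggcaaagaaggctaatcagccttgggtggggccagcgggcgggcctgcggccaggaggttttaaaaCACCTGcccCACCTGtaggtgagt
Krt23 (minus strand, chr11:99493121-99493370): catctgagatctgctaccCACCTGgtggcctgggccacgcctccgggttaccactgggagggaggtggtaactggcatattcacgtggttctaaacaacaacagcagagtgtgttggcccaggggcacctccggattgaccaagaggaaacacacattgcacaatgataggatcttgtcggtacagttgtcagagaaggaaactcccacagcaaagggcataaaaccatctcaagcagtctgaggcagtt
Krt7 (plus strand, chr15:101412153-101412402): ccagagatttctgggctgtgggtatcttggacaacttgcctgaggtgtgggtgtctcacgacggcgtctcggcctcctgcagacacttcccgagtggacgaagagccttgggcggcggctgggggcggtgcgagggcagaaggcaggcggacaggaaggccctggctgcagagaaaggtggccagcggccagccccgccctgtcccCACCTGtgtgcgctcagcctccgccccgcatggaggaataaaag
The Tspan1 window held CACCTG at 2 places, 24 and 15 bases before that start site (positions -24 and -15, the first crossing the end of the gene's span and the other inside it), and the Krt23 and Krt7 windows held it at 1 place each. At least 1 copy was found in 17.1% and at least 2 copies in 2.06% of windows of the same length over 27025 genes. The GC box GGGCGG occurred 4 times before Krt7, 1 time before Tspan1 and not before Krt23, against at least 1 copy in 32.9% of all windows. The SOX core motif (letters ACAAT) occurred 1 time, before Krt23 (28.4% of all windows). All motifs given here were searched on both strands. The TEAD motif GGAATG (12.6% of all windows), the TATA box TATAAA (13.0%) and the CCAAT box (34.5%) were not found in these 3 windows. No matches overlapped each other. These are matches of letters in a short window and say nothing of binding. The GC share was 53.6% for Tspan1, 52.8% for Krt23 and 66.0% for Krt7, with a median of 52.0% over all windows.

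Tspan1 (Entrez 66805, chromosome 4 from 116161881 to 116167621) was low in every antibody library and higher and more variable in the isotype libraries. Antibody replicates 1 to 5 gave 1.08, 1.58, 1.76, 1.35 and 1.23 RPKM, and isotype replicates 6 to 10 gave 4.23, 6.34, 9.30, 4.22 and 17.0 RPKM. No antibody library reached the lowest isotype library, and isotype replicate 10 stood well above the others. The means were 1.399 ± 0.27 and 8.22 ± 5.33 RPKM (SD, n = 5 each), and the log2 difference of antibody minus isotype was -2.02 (SE 0.32) on the log2(RPKM + 0.5) scale. The antibody libraries spanned a 1.63-fold range and the isotype libraries a 4.03-fold range. At the estimated depths the values rested on 36 to 430 reads. Without isotype replicate 10 the log2 difference was -1.72. Pomgnt1, an O-mannose glycosyltransferase gene and the nearest protein-coding neighbour, ends 2037 bases from Tspan1 and stood at 18.1 ± 4.65 and 20.5 ± 3.28 RPKM (SD, n = 5 each; log2 difference -0.21, SE 0.19, limma adjusted p = 0.871). The neighbour on the other side, 1700042G07Rik, was listed at 0 in every library.

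**Figure D1:**
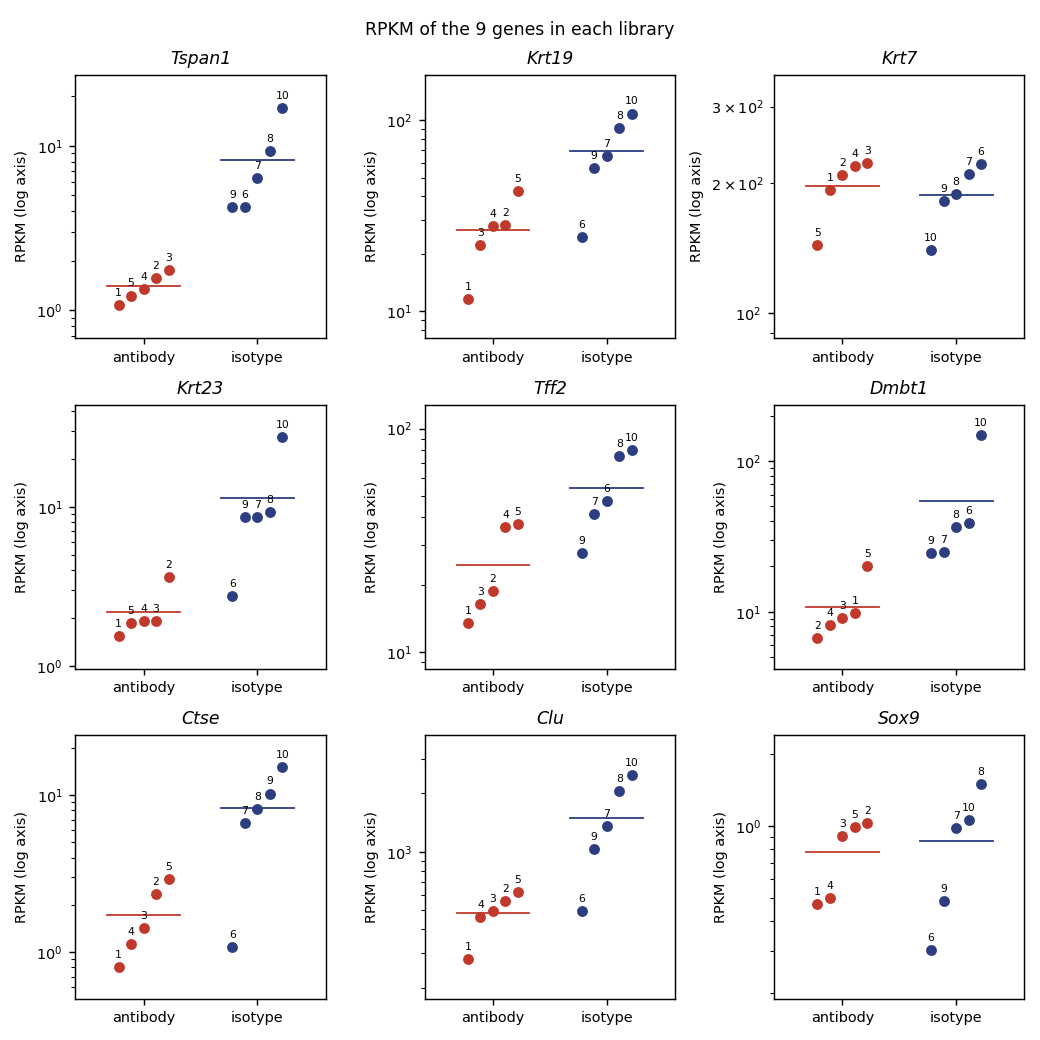
RPKM of the 9 genes (log axis) in the 5 antibody and 5 isotype libraries, with the replicate number beside each point and the group mean as a line; points are ordered by value within a group. Tspan1 and Dmbt1 do not overlap between the groups, isotype replicate 10 is the highest library of 7 genes, and Krt7 spans a 1.59-fold range over all libraries.

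Dmbt1, a scavenger receptor cysteine-rich glycoprotein secreted onto mucosal surfaces (Entrez 12945, chromosome 7 from 131032057 to 131121628), was the other member without overlap between the groups. Its antibody libraries gave 9.79, 6.71, 9.13, 8.13 and 20.2 RPKM and its isotype libraries 39.1, 25.01, 36.4, 24.6 and 148 RPKM. The means were 10.8 ± 5.39 and 54.6 ± 52.6 RPKM (SD, n = 5 each), with a log2 difference of -2.02 (SE 0.45). The highest library of each group, antibody replicate 5 and isotype replicate 10, stood apart from the other 4. Without isotype replicate 10 the log2 difference was -1.57. Groups without overlap and lower in the antibody libraries were found in 2 of the 9 members and in 0.84% of all tested genes. The group contrast was used to choose Tspan1, so nothing is read from that count.

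The keratin genes had unlike patterns. Krt19, the type I keratin of duct epithelium (Entrez 16669, chromosome 11 from 100140810 to 100145926), gave 11.5, 28.2, 22.3, 27.8 and 42.8 RPKM in the antibody libraries and 24.5, 65.2, 90.9, 56.2 and 108 RPKM in the isotype libraries. Isotype replicate 6 lay inside the antibody range and the other 4 isotype libraries above it. The log2 difference was -1.32 (SE 0.40). Krt23, another type I keratin (Entrez 94179, chromosome 11 from 99477973 to 99493120), gave 1.54, 3.60, 1.92, 1.91 and 1.86 RPKM with the antibody and 2.76, 8.59, 9.28, 8.59 and 27.4 RPKM in the isotype libraries. Isotype replicate 6 was again the 1 library inside the antibody range. Its log2 difference was -1.86 (SE 0.44), and -1.47 without isotype replicate 10.

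Krt7, the type II keratin that pairs with type I keratins in simple epithelia (Entrez 110310, chromosome 15 from 101412403 to 101427806), was among the most abundant of the 9 genes and nearly flat. Its antibody libraries gave 193, 208, 222, 218 and 144 RPKM and its isotype libraries 221, 209, 188, 182 and 140 RPKM. The groups covered the same range, and the lowest library of each group was the one with the highest Krt19, antibody replicate 5 and isotype replicate 10. The means were 197 ± 31.9 and 188 ± 31.1 RPKM (SD, n = 5 each), with a log2 difference of 0.07 (SE 0.16). That difference changed sign without isotype replicate 10 (-0.03).

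Sox9, the transcription factor of duct cells and pancreatic progenitors (Entrez 20682, chromosome 11 from 112782210 to 112787757), was the lowest of the 9. It gave 0.47, 1.03, 0.91, 0.50 and 0.99 RPKM with the antibody and 0.30, 0.98, 1.497, 0.49 and 1.06 RPKM in the isotype libraries, or 16 to 91 reads at the estimated depths. The groups overlapped, with isotype replicate 6 the lowest and isotype replicate 8 the highest of all libraries. The log2 difference was -0.05 (SE 0.26), and its sign changed with median centring (0.03) and with the omission of some single libraries.

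Clu, the secreted chaperone clusterin (Entrez 12759, chromosome 14 from 65968483 to 65981548), was the most abundant of the set. The antibody libraries gave 281, 556, 494, 460 and 618 RPKM and the isotype libraries 494, 1362, 2048, 1033 and 2498 RPKM. Isotype replicate 6 lay inside the antibody range, at the level of antibody replicate 3, and the other 4 isotype libraries above every antibody library. The log2 difference was -1.47 (SE 0.39).

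The remaining mucosal genes were Tff2, a trefoil peptide secreted with gastric mucus, and Ctse, the intracellular aspartic protease cathepsin E. Tff2 (Entrez 21785, chromosome 17 from 31141062 to 31144282) gave 13.5, 18.7, 16.3, 36.4 and 37.4 RPKM with the antibody and 47.5, 41.4, 75.7, 27.6 and 79.9 RPKM in the isotype libraries. Isotype replicate 9 fell inside the antibody range, and antibody replicates 4 and 5 stood above the other antibody libraries. Its log2 difference was -1.16 (SE 0.35), and -0.73 with the mean acinar level as a covariate. Ctse (Entrez 13034, chromosome 1 from 131638314 to 131675507) gave 0.81, 2.36, 1.43, 1.13 and 2.94 RPKM with the antibody and 1.08, 6.62, 8.20, 10.3 and 15.1 RPKM in the isotype libraries. The isotype libraries covered a 14.1-fold range, because replicate 6 stood at the level of the lowest antibody libraries. The log2 difference was -1.73 (SE 0.52).

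By mean RPKM the isotype order was Clu, Krt7, Krt19, Dmbt1, Tff2, Krt23, Ctse, Tspan1 and Sox9. In the antibody libraries Tff2 stood above Dmbt1 and the order was otherwise the same. Neighbours in the order from Krt19 to Tff2 or Dmbt1, and from Krt23 through Ctse to Tspan1, had overlapping ranges in both groups. The ranges of the other neighbours did not overlap. In all, 8 of the 9 log2 differences were negative, as were 66.5% of all tested genes, and 7 were at or below -1, as were 0.543% of all tested genes. The group contrast chose Tspan1, and the members were chosen with earlier results of these data known, so nothing is read from these counts. The sign of Sox9 depends on the setting, as given above. The 7 differences at or below -1 remained negative under every alternative setting run, including the mean level of 20 other duct genes as a covariate (-1.94 for Dmbt1, -1.76 for Tspan1, -1.45 for Krt23, -1.26 for Ctse, -1.14 for Tff2, -1.10 for Clu and -1.0 for Krt19). That mean includes Krt8 and Krt18, which islet and acinar cells also make, and leaves out Cftr, Sctr and Aqp5, which fell below the filter. It is not a measure of duct cell content.

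**Figure D2:**
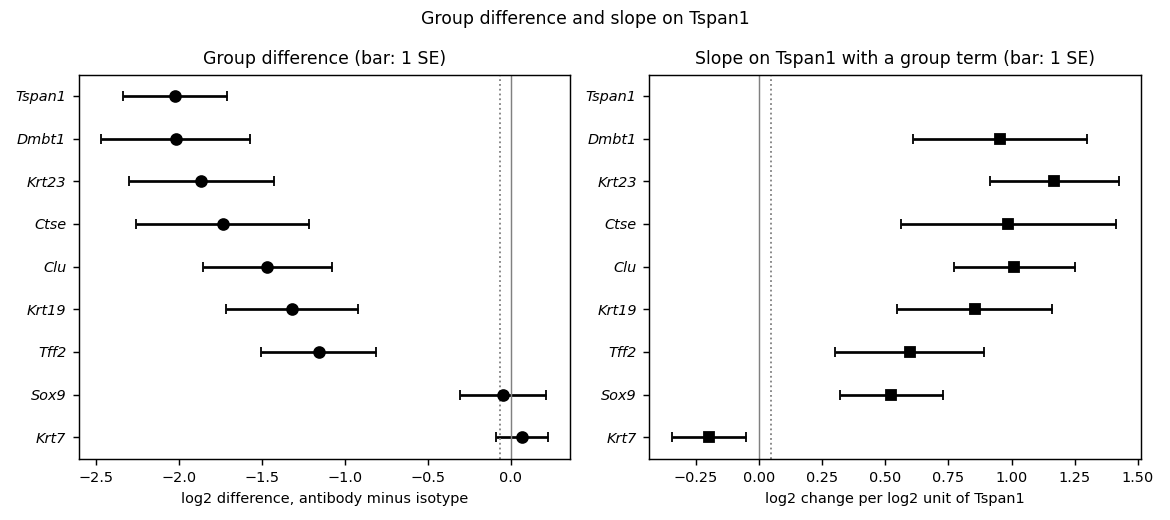
Left, log2 difference of antibody minus isotype, and right, log2 change of each gene per log2 unit of Tspan1 in a fit with a group term; bars are 1 SE and the dotted line is the median of all tested genes. Krt7 and Sox9 lie near 0 on the left, and on the right Sox9 has a slope of 0.52 while Krt7 has -0.20.

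To ask which genes followed Tspan1 apart from the group difference, each gene's log2 level was fitted with limma on the log2 level of Tspan1 with the group as a further term. The slope is then the log2 change of a gene per log2 unit of Tspan1 among libraries of the same group. Nearly all of this spread in Tspan1 lay in the isotype libraries, 93.8% of its sum of squares, and isotype replicate 10 alone held 52.5%. The slopes therefore mostly describe how the 5 isotype libraries differ from each other.

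Slopes of Tspan1 were positive for 7 of the 8 other members, where 63.5% of all tested genes had a positive slope. Krt23 had the steepest slope, 1.17 (SE 0.25), followed by Clu with 1.01 (SE 0.24), Ctse with 0.99 (SE 0.43), Dmbt1 with 0.95 (SE 0.34) and Krt19 with 0.85 (SE 0.31). Tff2 had 0.60 (SE 0.30), Sox9 0.52 (SE 0.20) and Krt7 -0.20 (SE 0.15). The order of Tff2 and Sox9 depended on the pseudocount added to the RPKM. With 0.1 the slope was 0.76 for Sox9 and 0.55 for Tff2, and with 1 it was 0.39 and 0.64. No member passed over all 13449 genes, with the smallest limma adjusted p at 0.746 for Krt23 and Clu, and no gene of the table did (0% called). At an unadjusted limma p under 0.05, the slope was positive in 6 of the 8 members and in 3.63% of all tested genes, and negative in none of the 8 and in 0.721% of all. The members outside that mark were Tff2 and Krt7. The members were chosen with earlier results of these data known, so nothing is read from these counts of slopes.

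By group-centred correlation with Tspan1 Krt23 and Clu again came first and Krt7 last, but Sox9 stood above Ctse and Dmbt1. Over the 10 libraries, Pearson's r was 0.83 for Krt23 (exact permutation p = 0.012, Spearman's rho 0.65, exact permutation p = 0.0455) and 0.82 for Clu (exact permutation p = 0.0284, rho 0.85, exact permutation p = 0.0143). For Sox9 r was 0.69 (exact permutation p = 0.0829) and rho 0.81 (exact permutation p = 0.0289), and for Krt19 r was 0.66 (exact permutation p = 0.0595) and rho 0.76 (exact permutation p = 0.0362). Dmbt1 had r = 0.65 (exact permutation p = 0.127) and rho = 0.33 (exact permutation p = 0.431), Ctse r = 0.58 (exact permutation p = 0.23) and rho = 0.38 (exact permutation p = 0.349), and Tff2 r = 0.54 (exact permutation p = 0.119) and rho = 0.47 (exact permutation p = 0.162). Krt7 had r = -0.45 (exact permutation p = 0.23) and rho = -0.12 (exact permutation p = 0.769). These p-values are two-sided, from 14400 rearrangements of Tspan1 within the groups. Adjusted over all 13449 genes, every exact permutation p was 0.985 for r and 1 for rho in these members. The smallest p that the rearrangements can give is 6.94e-05, so a gene could not pass this adjustment on its own. An r of at least 0.7 was found in 2 of the 8 members and in 2.36% of all tested genes, whose median r was 0.12. For the same reason as with the slopes, nothing is read from that count.

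Leaving out the libraries in which Tspan1 lay farthest from its median, isotype replicates 9 and 10, separated the members. The r was then 0.87 for Clu, 0.87 for Sox9, 0.81 for Krt23, 0.75 for Ctse and 0.70 for Krt19. For each of these but Krt23 that was higher than with all libraries. Over the 8 remaining libraries r was 0.22 for Tff2 and -0.25 for Dmbt1, so the positive relation of Dmbt1 with Tspan1 rested on the libraries left out. For Krt7 it was -0.0067. Without isotype replicate 10 alone the slope of Dmbt1 was -0.11 and that of Krt7 0.07, while those of Clu (1.41), Krt19 (1.19), Sox9 (1.10), Ctse (1.01) and Krt23 (0.89) remained positive. Isotype replicate 6, with a centred log2 Tspan1 of -0.69 beside -0.70 in replicate 9, also weighed on these values. Without it the slope was 0.39 for Ctse and Sox9, 0.56 for Krt19, 0.73 for Clu and 0.88 for Krt23. Without replicate 9 that of Ctse was 1.53. In the isotype libraries alone the slopes were 1.18 for Krt23, 1.10 for Dmbt1 and 1.0 for Clu. In the antibody libraries alone, where Tspan1 ranged only from 1.08 to 1.76 RPKM, they were 1.05 for Krt23, -1.28 for Dmbt1 and 1.15 for Clu, and none passed limma's adjustment over all genes.

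**Figure D3:**
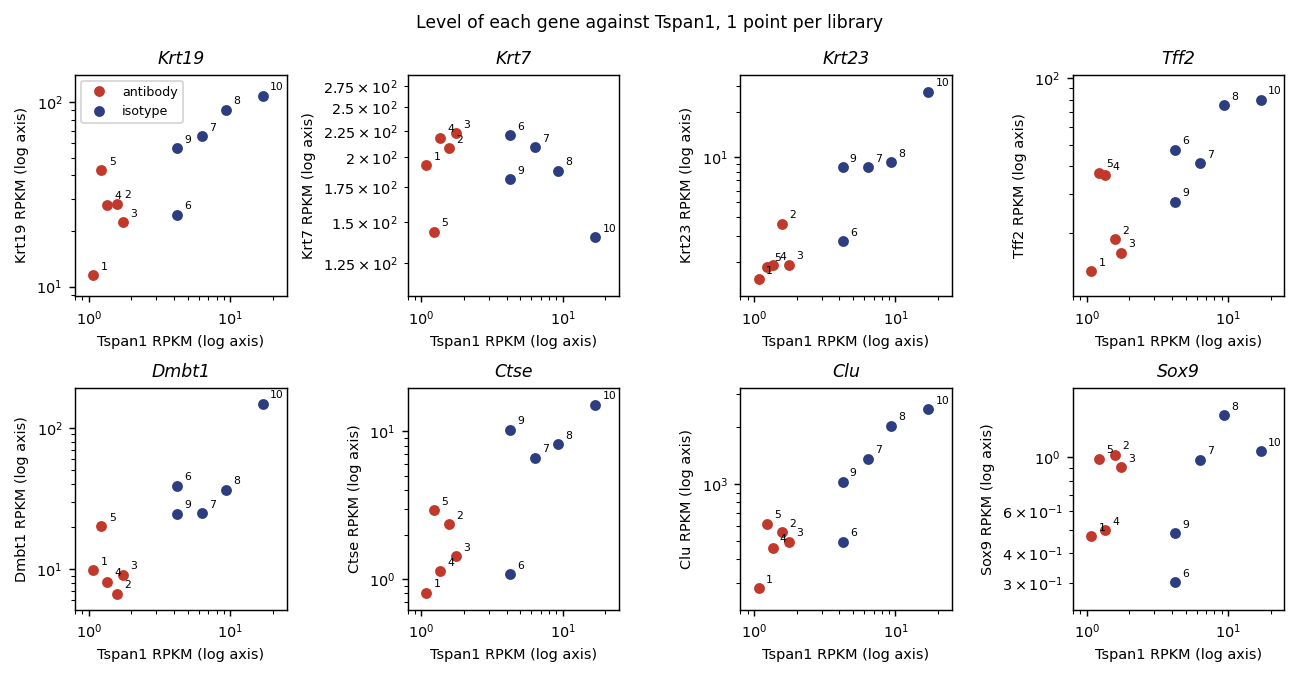
RPKM of 8 genes against Tspan1 RPKM (both log axes), with 1 point per library and its replicate number. Among the isotype libraries Clu and Krt19 increase in the order 6, 9, 7, 8 and 10, close to the order of Tspan1, while Dmbt1 is set apart by replicate 10 and Krt7 is lowest there.

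The ratio of Tspan1 to each other member was lower under the antibody for all 8 as a mean, and its groups were without overlap for 3 of them. Against Krt7 the log2 ratio was -7.14 ± 0.26 in the antibody libraries and -4.71 ± 1.06 in the isotype ones (SD, n = 5 each). Against Sox9 it was 0.90 ± 0.45 and 3.25 ± 0.63, and against Clu -8.40 ± 0.37 and -7.51 ± 0.45 (SD, n = 5 each). Against Krt23 the log2 ratio was -0.59 ± 0.38 and -0.31 ± 0.64 (SD, n = 5 each), so Tspan1 and Krt23 kept a ratio that overlapped between the groups. The ratios to Dmbt1 (-2.86 ± 0.77 and -2.56 ± 0.60) and Ctse (-0.17 ± 0.72 and 0.20 ± 1.16; SD, n = 5 each) overlapped as well. These ratios contain the contrast that chose Tspan1 and are given without a test.

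The tested genes most like Tspan1 by group-centred r, outside the 9, were Dnajc22, a J-domain membrane protein (r = 0.94), Ethe1, a mitochondrial sulfur dioxygenase (0.93), 3000002C10Rik (0.92), Yap1, the Hippo pathway coactivator (0.91), and Slc39a8, a zinc and manganese carrier (0.91). They were followed by Slc41a1, a magnesium carrier (0.90), Fgd3, an exchange factor for Cdc42 (0.90), Cdc42ep1, an effector of Cdc42 (0.89), Slc7a3, a cationic amino acid carrier (0.89), and Ptpn14, a phosphatase (0.88). Likeness was measured over the same 10 libraries, and these values are given without a p as they were picked as the highest of 13449. Without isotype replicates 9 and 10 their r ran from 0.68 to 0.96. Yap1 stood at 1.64, 1.59, 1.47, 1.29 and 1.35 RPKM in the antibody libraries and 1.25, 1.74, 2.49, 1.72 and 4.61 RPKM in the isotype libraries, so its high value was isotype replicate 10. Among all genes ranked by r, Krt23 was 47th and Clu 61st.

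**Figure D4:**
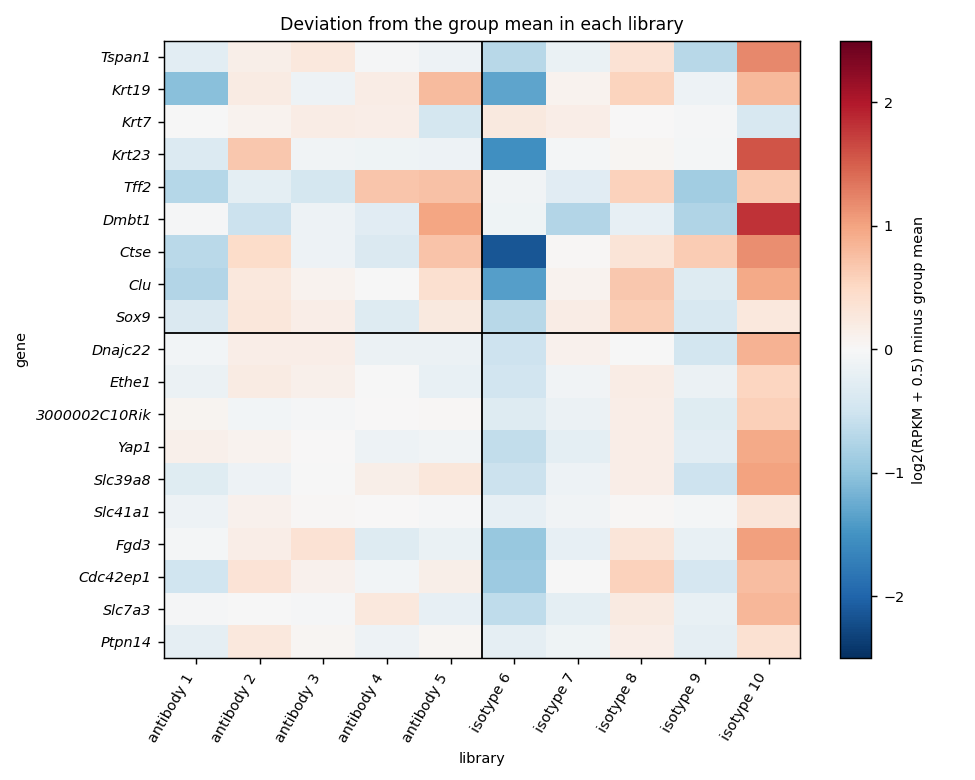
Log2(RPKM + 0.5) minus the group mean (color) in each library (columns) for the 9 genes, above the line, and the 10 genes most like Tspan1 by group-centred r, below it. Isotype replicate 10 is high and isotype replicate 6 low for most genes shown, while Krt7 has the opposite sign in isotype replicate 10.

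Other duct genes were read from a list of 26, all found in the table and 20 of them tested. None passed the group comparison (limma, Benjamini-Hochberg over all genes), in which 0.0149% of all tested genes were called lower, 0.394% higher and 0.409% in either direction. At an unadjusted limma p under 0.05, 6 were lower and 1 higher in the antibody libraries, against 4.18% and 2.84% of all tested genes, and the list median was -0.05 beside -0.07 for all genes. The 4 with the smallest p were Krt20, a keratin of differentiated epithelium (1.99 ± 0.93 RPKM in the isotype libraries and 0.65 ± 0.28 with the antibody, SD, n = 5 each; log2 difference -1.06, SE 0.28, limma adjusted p = 0.235), Krt18 (-0.72, SE 0.21, limma adjusted p = 0.327) and Krt8 (-0.78, SE 0.23, limma adjusted p = 0.353), the keratin pair of simple epithelia, which islet and acinar cells also make, and Ehf, an epithelial ETS factor (0.80, SE 0.22, limma adjusted p = 0.288). Krt20 passed without isotype replicate 6 (-1.28, limma adjusted p = 0.0461). The positive difference of Ehf passed with the mean level of the duct list, which includes Ehf itself, as a covariate (1.03, limma adjusted p = 0.00477).

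Some other genes of the duct list are named here after their values were seen. Muc1, a membrane mucin, stood at 4.05 in antibody and 8.75 RPKM in isotype libraries (log2 difference -1.005, SE 0.39). Epcam, the epithelial adhesion molecule, stood at 82.7 and 73.7 RPKM (log2 difference 0.17, SE 0.12). Spp1, the secreted phosphoprotein osteopontin, ran from 73.3 to 811 RPKM in the antibody libraries and from 61.6 to 311 RPKM in the isotype libraries (0.77, SE 0.67). The summed RPKM of the duct list was 901 to 1704 with the antibody and 886 to 1718 with the isotype control. Much of that sum came from genes that went opposite ways. Mean RPKM with the antibody and the isotype control was 183 and 325 for Krt8, 216 and 368 for Krt18, and 401 and 185 for Spp1. The like ranges are thus not a measure of like duct content. No duct gene was at 0 in every library, but Cftr, the chloride channel of duct cells, did not exceed 0.25 RPKM, Sctr, the secretin receptor, 0.07 RPKM and Aqp5, a water channel, 0.40 RPKM.

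Slopes on Tspan1 in the duct list were positive for 15 of 20, with a median of 0.29 beside 0.05 for all genes, and 7 of the 20 were positive at an unadjusted limma p under 0.05 (3.63% of all genes), none after adjustment. This list too was chosen with earlier results of these data known, so nothing is read from these counts. Anxa3, a membrane-binding annexin, had 0.92 (SE 0.19), Krt8 0.59 (SE 0.15), Krt18 0.52 (SE 0.14) and Cd24a, a surface glycoprotein of epithelial progenitors, 0.50 (SE 0.14), with limma adjusted p from 0.746 to 0.941. Anxa3 gave 7.77, 15.7, 10.8, 11.7 and 12.4 RPKM with the antibody and 9.56, 22.2, 31.7, 19.8 and 45.7 RPKM in the isotype libraries, again with isotype replicate 6 inside the antibody range. Of 7 tested keratins beyond the members, 6 had negative group differences and all 7 had positive slopes (medians -0.71 and 0.47). Over all tested genes 66.5% of group differences were negative and 63.5% of slopes positive. The 7 keratins include Krt8, Krt18 and Krt20, already given with the duct list. Krt17, a keratin of basal and stressed epithelium, was another of the 7 (log2 difference -0.71, SE 0.24, limma adjusted p = 0.462).

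Among 24 other mucosal genes 11 were tested, with a median log2 difference of 0.31, and 1 passed. Sftpd, a collectin of mucosal surfaces, was higher with the antibody: 5.13, 5.40, 6.64, 4.17 and 1.92 RPKM against 0.89, 1.76, 1.42, 1.16 and 1.64 RPKM, with no overlap (log2 difference 1.39, SE 0.26, limma adjusted p = 0.0492; 0.394% of all tested genes were called higher). Of 20 alternatives, 13 ended this call. Leaving out any 1 library ended it except for antibody replicate 5 (highest limma adjusted p 0.171). Vsig2, an epithelial immunoglobulin-like protein (-0.60, SE 0.19, limma adjusted p = 0.412), and Fxyd3, a regulator of the sodium pump (0.43, SE 0.15, limma adjusted p = 0.535), did not pass. Slpi, a secreted protease inhibitor, had a slope on Tspan1 of 1.23 (SE 0.29, limma adjusted p = 0.746) but a positive group difference (1.001, SE 0.47, limma adjusted p = 0.722).

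The other trefoil peptides, named after their values were seen, were nearly silent in most libraries. Tff1 gave 0.12, 0.71, 0.13, 0.29 and 0.81 RPKM in the antibody libraries and 0, 3.04, 2.11, 40.9 and 66.4 RPKM in the isotype libraries, and Tff3 reached 2.64 and 2.54 RPKM in isotype replicates 9 and 10 and no more than 0.44 elsewhere. Cldn18, a tight junction protein of stomach and lung, gave 2.47 and 11.8 RPKM in the same libraries and no more than 0.68 elsewhere. Tspan1 was at its isotype minimum in replicate 9 and at its maximum in replicate 10, so these genes shared the high replicate 10 with Tspan1 but not replicate 9. Their slopes on Tspan1 were 1.46 (SE 0.49) for Cldn18, 1.62 (SE 0.99) for Tff1 and 0.64 (SE 0.48) for Tff3, and none passed limma's adjustment. None passed between the groups (limma adjusted p 0.586 for Tff1, 0.775 for Tff3 and 0.72 for Cldn18). The gastric genes Gkn1, Gkn2 and Pgc did not exceed 0.10 RPKM. Muc5ac, the gastric surface mucin, reached 1.23 and 0.89 RPKM in isotype replicates 9 and 10 and no more than 0.03 elsewhere, and Gkn3 reached 0.51 RPKM in replicate 9.

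Tspan1 was set beside 30 other tetraspanins, of which 24 were tested. None passed between the groups or in its slope on Tspan1, 3 were higher and 0 lower at an unadjusted limma p under 0.05 (2.84% and 4.18% of all tested genes), and the median log2 difference was 0.06. Tspan8, another tetraspanin of gut and pancreatic epithelium, had its higher values with the antibody. It gave 48.7, 44.0, 39.6, 34.0 and 30.6 RPKM with the antibody and 27.5, 20.7, 19.9, 24.98 and 25.7 RPKM in the isotype libraries, without overlap. Its log2 difference was 0.71 (SE 0.14, limma adjusted p = 0.0808), and it passed with each of the 3 scalings (limma adjusted p from 0.0252) and without antibody replicate 5 (0.0331). Its slope on Tspan1 was -0.04 (SE 0.15). Tspan7 stood at 137 ± 9.85 and 116 ± 5.17 RPKM (SD, n = 5 each; log2 difference 0.23, SE 0.09, limma adjusted p = 0.635), and Cd9, a widely expressed tetraspanin, had the slope with the smallest p (0.65, SE 0.22, limma adjusted p = 1).

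Markers of acinar cells, the enzyme-making cells around islets, had values in the direction of the members. Of 16 acinar genes, all tested, 15 had negative group differences with a median of -0.57, and all 16 had positive slopes on Tspan1 with a median of 0.49. Without isotype replicates 9 and 10 their group-centred r with Tspan1 ran from -0.14 to 0.58, and most were at 0.24 or below. The positive sign thus rested on those libraries for some of the 16. None of the 16 passed limma's adjustment in either fit. Over all tested genes 66.5% of group differences were negative and 63.5% of slopes positive. The summed RPKM of the list ran from 4482 to 14591 with the antibody and from 3364 to 19465 with the isotype control, and no acinar marker was at 0. Ctrb1, a chymotrypsinogen gene, stood at 2029 ± 864 and 4020 ± 1791 RPKM (SD, n = 5 each). Ptf1a, the acinar transcription factor gene, named after its values were seen, gave 0.39, 0.27, 0.75, 0.54 and 0.62 RPKM with the antibody and 0.99, 2.35, 1.97, 3.07 and 7.32 RPKM in the isotype libraries, without overlap. With the mean acinar level as a covariate the group difference was -1.85 for Tspan1, -1.85 for Krt23, -1.73 for Ctse, -1.70 for Dmbt1, -1.27 for Clu and -1.08 for Krt19. That of Tff2 was -0.73, against -1.16 without the covariate.

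Markers of other cells were read in the same way. The 7 fibroblast and stellate cell genes had positive slopes (median 0.90) but a median group difference of 0.15, and their summed RPKM ran from 10.8 to 169 with the antibody and from 13.8 to 161 with the isotype control. All 6 endothelial genes had negative slopes (median -0.22). That shared sign rested on isotype replicates 9 and 10, without which group-centred r ran from -0.32 for Pecam1 to 0.73 for Plvap. Of 8 tuft cell genes 3 were tested, and Pou2f3, which specifies tuft cells, did not exceed 0.05 RPKM. None of the genes of these lists passed limma's adjustment in either fit, and their part in the levels of the 9 genes was not tested. Of 6 tested leukocyte genes 5 had positive slopes (median 0.63), and their list summed to 14.7 to 74.1 RPKM with the antibody and 16.8 to 69.1 RPKM in the isotype libraries. Of the endocrine markers, 6 of 7 alpha cell genes were called higher (0.394% of all tested genes), and 0 of 7 beta cell genes were called, with a median log2 difference of -0.45.

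**Figure D5:**
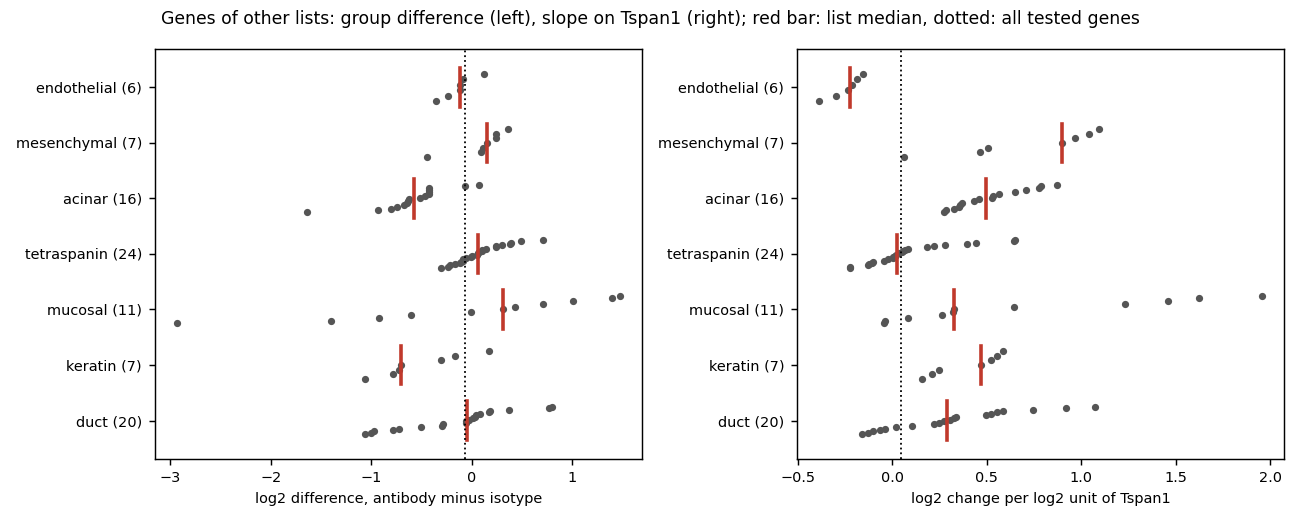
Log2 difference of antibody minus isotype (left) and slope on Tspan1 (right) of the tested genes of 7 lists, 1 point per gene, with the number tested in brackets, the list median as a red bar and the median of all tested genes as a dotted line. The keratin and acinar medians (-0.71 and -0.57) lie left of the dotted line, and the duct and tetraspanin medians (-0.05 and 0.06) lie close to it.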

How the data were processed

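Islet polyA RNA of 10 libraries was read from 1 table of RPKM values that the authors deposited. Per the submitters' processing notes, the tools named are CASAVA 1.8.2 and FastQC and the builds GRCm38 and mm10; aligner and counting program: not given in the sources used here. Groups follow the sample titles. Genes averaging 0.5 RPKM or more were taken as log2(RPKM + 0.5), unscaled, so folds of low genes are understated. Group differences and slopes on Tspan1 (with a group term) were fitted with limma 3.58.1 in R 4.3.3 (variance trend, Benjamini-Hochberg over all genes, threshold 0.05; SE is limma's moderated one). Correlations used exact permutation within groups (Python 3.11.15, scipy 1.17.1). Depth was estimated from the steps of low values over 15621 genes with 1 GENCODE M21 transcript length; 67.4% to 73.4% of low values lay within 0.1 of a whole read, so reads were not recovered. Coordinates and start sites are RefSeq's, GRCm38.p6. The fits were also run on simulated data, with genes drawn independently and planted slopes steeper than that of any member. That run does not bear on slopes of the size reported. The members and lists were chosen with earlier results of these data known. Named beyond the 9 genes were Gcg, Slc38a5, the 10 genes most like Tspan1, its neighbours, and the called or smallest-p genes of each list; others are marked. Alternatives were other pseudocounts, filters and scalings (median, quantile, trimmed mean), no variance trend, covariates, and libraries left out. 1 gene of the duct list is not reported here by name.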

Additional observations from a re-analysis of the deposited data

Results flagged for a closer look

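Within each group of 5 libraries, the highest and lowest RPKM values of the 9 genes were compared with their nearest neighbour. In 4 of 18 groups a library was set apart by more than Dixon's 95% value. For normally distributed values chance gives about 1 in 20. The RPKM values were used here without the log2 scale, and all 4 values set apart were the highest of their group. The 18 groups also share the same 10 libraries, so the count of 4 is not compared with the chance rate. Krt23 was at 3.60 RPKM in antibody replicate 2, where the next library had 1.92, and at 27.4 RPKM in isotype replicate 10, where the next had 9.28. Dmbt1 was at 20.2 RPKM in antibody replicate 5, where the next had 9.79, and at 148 RPKM in isotype replicate 10, where the next had 39.1.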

How the results depend on the processing

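Each alternative changed 1 choice, except that 2 libraries were left out together in one and the fits to a single group had no group term. The number of genes that followed Tspan1 within groups, 0, became 3 without isotype replicate 9 (Gsta3, Gsto1 and Anxa13, named after their values were seen), a range of 0 to 3 over the omission of single libraries, and 33 with no group term. In that last setting 3 members passed, Krt23, Clu and Dmbt1, and it contains the group difference that chose Tspan1. With 1 library left out, the called duct genes ranged from 0 to 1, the mucosal genes from 0 to 2 and the tetraspanins from 0 to 1. Without antibody replicate 5 the counts were 2 mucosal genes and 1 tetraspanin, Tspan8 being both. Mucosal calls were 0 with a pseudocount of 1, a minimum mean of 5 RPKM (which leaves Sftpd out) or no variance trend. They were 2 with median centring, quantile normalization or trimmed mean scaling, and each of these called 1 tetraspanin. Signs turned for the slope of Krt7 without isotype replicate 10 (0.073, against -0.27 without isotype replicate 9), also without both antibody replicate 5 and isotype replicate 10 (0.000739), and in the antibody libraries alone (0.69), where Tff2 (-0.46) and Dmbt1 (-1.28) turned too. The slope of Dmbt1 was -0.11 without isotype replicate 10 and up to 1.18 without isotype replicate 6. With no group term those of Slpi (-0.13) and Cd9 (-0.016) turned. The group difference of Cd24a was -0.090 without isotype replicate 6 (up to 0.19 without isotype replicate 10), and that of Cd151 -0.02 without antibody replicate 2 and -0.036 without isotype replicate 6 (up to 0.16 without antibody replicate 5). The cause of these shifts was not tested. No paired analysis was run because the labels name no pairing between the groups. At the estimated depths of 12.3 to 18.1 megareads, Sox9 rested on as few as 16 reads by estimate.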
